A study of Mus musculus with 12 samples.

Results

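The extracellular matrix genes outside the collagen family that were followed in these livers are 42 in number: laminin chains, basement membrane linkers, glycoproteins, fibulins, elastic fibre components, proteoglycans, and the enzymes and inhibitors that cross-link or cut matrix. They form a list of symbols, which was matched by symbol to the table of 17714 genes. All 42 were found there, and all 42 had a mean of at least 10 normalized counts and were tested. RNA was sequenced from whole livers of 12 female mice, killed at weaning at 3 weeks of age around 10 am. In 6 of these mice (KO) Lcorl, which encodes a nuclear corepressor-like protein, was deleted throughout the body, and 6 were wild type (WT). No treatment or diet is given for either group, and the sources used here do not name the strain or the deleted allele. Each library came from 1 animal with its own number; WT 1 to WT 6 and KO 1 to KO 6 below are names in order of deposit. The deletion is not restricted to the liver, so a difference seen in liver RNA need not arise in the liver.

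Laminins are trimers of an alpha, a beta and a gamma chain that polymerize into the sheet of a basement membrane, to which nidogens, perlecan and agrin attach. Fibronectin and the elastic fibre proteins form the interstitial network, small leucine-rich proteoglycans bind its collagen fibrils, lysyl oxidases cross-link it, and metalloproteases and their TIMP inhibitors control its removal. In the healthy liver most of these transcripts come from stellate cells, portal fibroblasts and endothelial cells, whereas soluble plasma fibronectin is made by hepatocytes. In whole-liver RNA, fewer cells of a type and less RNA per cell cannot be told apart.

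The libraries held 21769795 to 31296485 reads in genes. Lcorl measured 275 ± 26.5 in WT against 0.47 ± 1.15 in KO (SD, n = 6 per group), in normalized counts. Summed normalized counts of 9 hepatocyte markers, albumin among them, were 3.34e+06 to 4.10e+06 in KO and 3.74e+06 to 4.01e+06 in WT. A pair of livers carried transcripts of other tissue. WT 6 held 5 fat tissue markers at more than 5 times their level in any other liver, among them Adipoq at 53.4 and Cfd at 101 normalized counts. The full list of 10 fat tissue markers did not follow these 5. It summed to 1331 in WT 6, the lowest sum of any liver, beside 1370 to 2457 in the other livers. KO 2 held the pancreatic transcripts Reg1 at 126 and Ctrb1 at 26.7. The 5 of 10 pancreas markers found among the genes summed to 492 in KO 2, inside the WT span of 430 to 723. For genes highest in WT 6, values without it are given.

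Of the 42 matrix genes, 3 fell in KO liver and 39 did not pass the threshold, which was an adjusted p under 0.05 over all 13569 genes tested (limma on log2(normalized count + 1)). The 3 were Efemp1, a fibulin gene, and Ogn and Lum, which encode the small leucine-rich proteoglycans osteoglycin and lumican. Of all genes tested, 2.68% fell at this threshold, against 3 of 42 here. No matrix gene rose past the threshold in limma or in edgeR's quasi-likelihood test, where 1.75% of all genes rose in limma; 2 (Adamts1 and Mmp14) were higher at an unadjusted p under 0.05, where 11.1% of all genes were, and Adamts1 rose in DESeq2. The log2 difference was below 0 for 34 of the 42 genes and above 0 for 8, while 48.2% of all genes tested lay below 0. The median over the 42 was −0.30 and over all genes tested 0.01. At an unadjusted p under 0.05, 13 matrix genes were lower, where 12.4% of all genes were. edgeR called 2 of the 42 lower, Efemp1 and Ogn, and 2.36% of all genes. limma with a block for runs of close animal numbers called the same 2, and 0.715% of all genes. The run of WT 2 and WT 3 held no KO liver, so with the block these livers do not enter the genotype estimate. Fold changes are on the log2(normalized count + 1) scale and are therefore too small for genes with few counts.

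**Figure D1:**
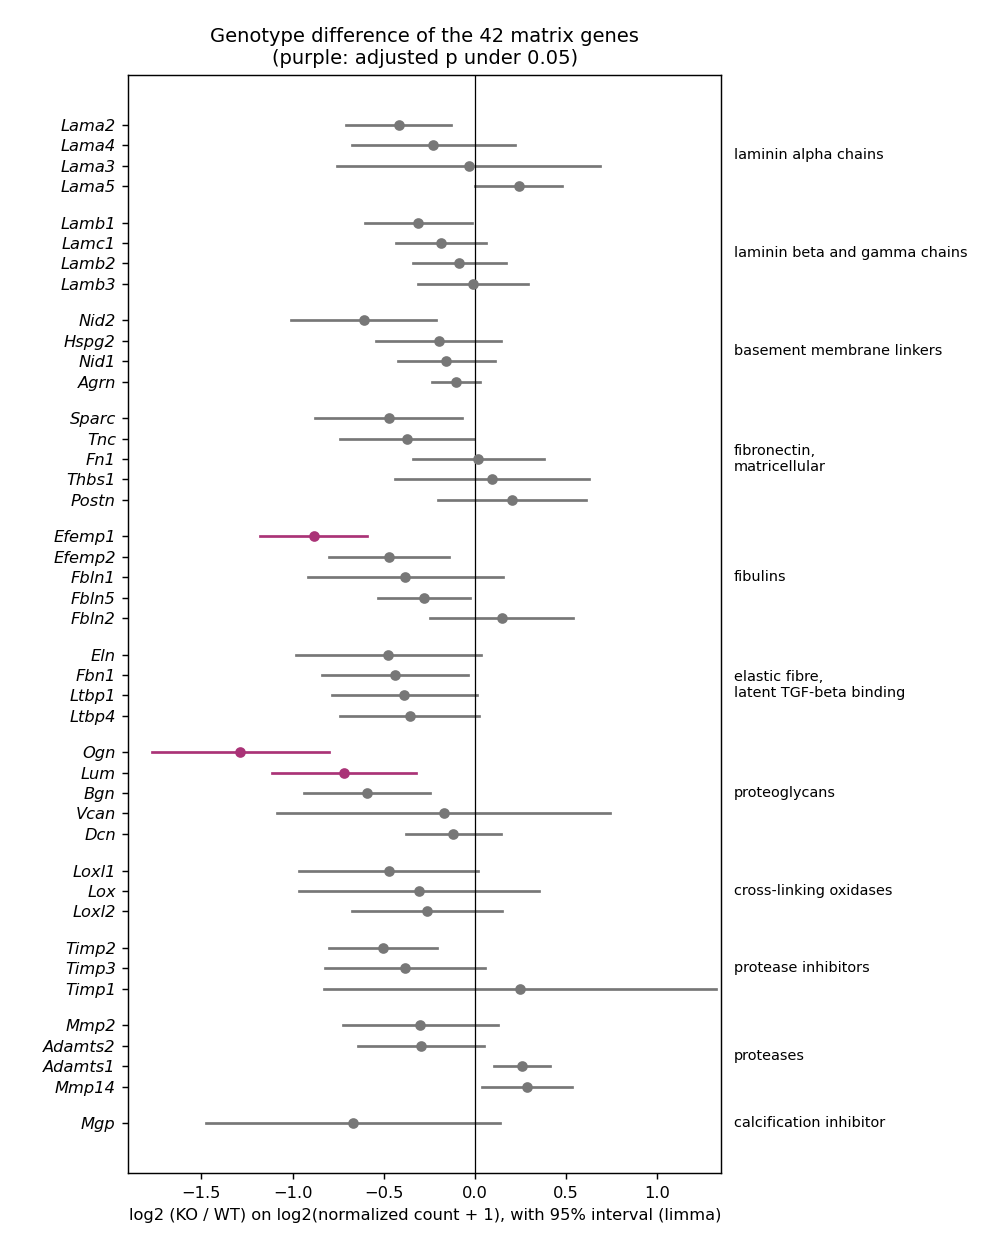
Log2 difference of KO against WT liver (x axis) for each of the 42 matrix genes (y axis, by role); points are limma estimates and lines their 95% intervals over 6 KO and 6 WT livers. Ogn, Efemp1 and Lum, in purple, passed an adjusted p of 0.05, and 34 points lie left of 0.

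Efemp1, also called fibulin-3, is a secreted glycoprotein of the fibulin family found in basement membranes and around vessels. It lies at chr11:28853204-28926743 on the plus strand of GRCm38 and shares no exon base with another annotated gene. WT livers held 212 to 281 (median 265) normalized counts, and KO livers 105 to 198 (median 133). The 6 KO livers were all below the 6 WT livers. The fall was 1.85-fold (255 ± 26.8 in WT against 139.7 ± 32.0 in KO, SD, n = 6 per group; log2 difference −0.89, SE 0.14, adjusted p = 0.00429, limma). The call held without each single library (adjusted p up to 0.0134), in edgeR (0.00601) and with the block of animal number runs (0.0408). Without WT 6 the log2 difference was −0.86. KO 6 had the highest KO value, and the other 5 KO livers lay between 105 and 145.

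Ogn encodes osteoglycin, which binds collagen fibrils. It lies at chr13:49608046-49624501 on the plus strand, inside the span of Cenpp on the other strand but with no exon base in common. Its values ran from 96.9 to 256 (median 146) normalized counts in WT and from 44.5 to 85.7 (median 60.3) in KO, again with no overlap between the groups. Efemp1 and Ogn were the only 2 of the 42 genes with every KO liver below every WT liver, a pattern shown by 1.66% of all genes tested, and none had every KO liver above, against 1.3%. Ogn fell 2.44-fold (155 ± 53.5 in WT against 62.1 ± 17.3 in KO, SD, n = 6 per group; log2 difference −1.29, SE 0.22, adjusted p = 0.00801, limma). WT 6 was the highest WT liver at 256, and the next was 149. Without WT 6 the log2 difference was −1.13 (adjusted p = 0.0064, limma), and without WT 6 and KO 2 it was −1.06 (0.0122). The call held without each single library (adjusted p up to 0.0246) and with the block of animal number runs (0.0234).

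**Figure D2:**
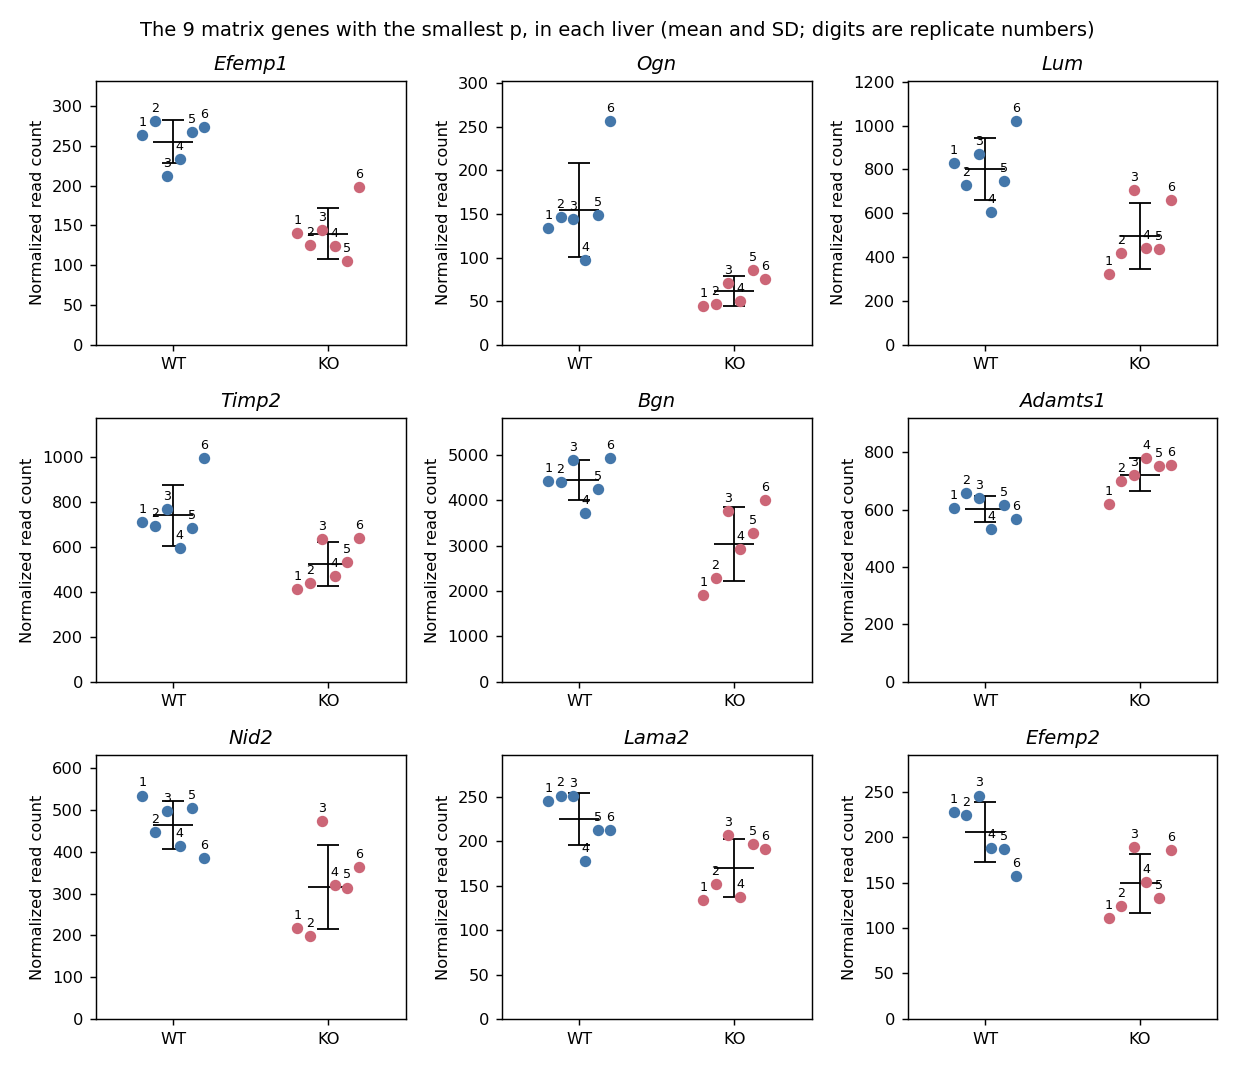
Normalized read count (y axis, from 0) of the 9 matrix genes with the smallest p in each WT and KO liver; points are livers with their replicate number, bars the mean and SD of 6. The KO and WT points of Efemp1 and Ogn are apart, those of the other 7 genes overlap, and Adamts1 is the gene of the 9 with a higher KO mean.

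The windows just before the starts of these genes are shown because Efemp1 and Ogn fell together, with Adamts1, the gene with the smallest p among those with a higher KO mean, beside them. They are the 250 bases before the RefSeq start, 5′ to 3′ on the gene's strand of GRCm38.p6, at chr11:28852955-28853204 (plus) for Efemp1, chr13:49607765-49608014 (plus) for Ogn and chr16:85803114-85803363 (minus) for Adamts1. Capitals mark matches on either strand to 4 core promoter and activator motifs, the TATA box TATAAA, the CCAAT box CCAAT, the GC box GGGCGG and the AP-1 site TGACTCA.
Efemp1: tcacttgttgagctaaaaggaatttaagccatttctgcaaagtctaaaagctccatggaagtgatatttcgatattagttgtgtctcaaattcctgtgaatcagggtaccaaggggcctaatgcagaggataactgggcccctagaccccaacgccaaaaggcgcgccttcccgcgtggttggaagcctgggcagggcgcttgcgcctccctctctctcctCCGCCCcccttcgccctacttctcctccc
Ogn: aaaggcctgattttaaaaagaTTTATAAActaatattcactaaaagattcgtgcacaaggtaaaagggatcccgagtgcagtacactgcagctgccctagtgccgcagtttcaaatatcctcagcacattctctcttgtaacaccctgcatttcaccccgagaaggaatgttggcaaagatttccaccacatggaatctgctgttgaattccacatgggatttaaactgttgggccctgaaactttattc
Adamts1: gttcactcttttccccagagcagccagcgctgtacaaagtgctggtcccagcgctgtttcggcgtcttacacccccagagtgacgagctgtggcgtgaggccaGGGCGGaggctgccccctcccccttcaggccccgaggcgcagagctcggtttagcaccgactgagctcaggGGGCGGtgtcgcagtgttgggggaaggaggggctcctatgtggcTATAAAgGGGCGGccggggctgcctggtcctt
The Efemp1 window held 1 GC box, beginning 29 bases before the start, and no match to the other 3 motifs. Adamts1 held 3 GC boxes and a TATA box that begins 32 bases before the start. In Ogn the matches to TATAAA overlap each other and begin 229 and 227 bases before the start. G and C made up 53.6% of the Efemp1 window, 42% of Ogn and 65.6% of Adamts1, with a median of 52% over 27025 genes. In all genes' windows of this length, 32.9% held a GC box, 12.97% TATAAA, 34.5% CCAAT and 4.43% the AP-1 site. Of the 28 of 42 matrix genes matched to a window, 20 held a GC box, 3 TATAAA, 9 CCAAT and 0 the AP-1 site. A match describes the letters and says nothing of binding.

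Among the other proteoglycans, lumican, which like osteoglycin regulates collagen fibril width, passed by a narrow margin. Lum (chr10:97565128-97572703) held 604 to 1019.9 (median 789) normalized counts in WT and 321 to 706 (median 440.0) in KO, so KO 3 and KO 6 lay within the WT range. It fell 1.65-fold (799.8 ± 141 in WT against 497 ± 151 in KO, SD, n = 6 per group; log2 difference −0.72, SE 0.18, adjusted p = 0.044, limma). The call was lost on omitting any 1 of WT 1, WT 2, WT 3, WT 5, WT 6, KO 1, KO 2, KO 4, KO 5 (adjusted p up to 0.0969), in edgeR (0.0551), with the block (0.152) and without WT 6 and KO 2 (0.0866). Bgn, which encodes biglycan and lies on the X chromosome, held 3719.8 to 4919.5 (median 4416) in WT and 1921 to 4009 (median 3097) in KO. Its difference did not pass (log2 difference −0.59, SE 0.16, adjusted p = 0.0555, limma), although 4 KO livers lay below every WT liver. Decorin, Dcn, the most abundant of these 5 per length, was close in the groups: 6689.8 to 8309 in WT and 4672 to 8122 in KO, a log2 difference of −0.12 with a 95% interval of −0.38 to 0.14. Vcan, the large proteoglycan versican, stayed low at 10.7 to 34.3 in WT and 6.59 to 45.2 in KO.

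The other fibulins did not pass. Efemp2, or fibulin-4, needed for elastic fibre assembly, held 157 to 246 (median 207) normalized counts in WT and 111 to 189.6 (median 142) in KO (log2 difference −0.47, SE 0.15, adjusted p = 0.0924, limma). Its exons share 173 bases with Mus81 on the other strand. Fbln5, which tethers elastic fibres to cells, held 368 to 475 (median 404) in WT and 267 to 425 (median 359.6) in KO (log2 difference −0.28, SE 0.12, adjusted p = 0.169, limma). For both genes the groups overlapped and KO 1 was the lowest liver. Fbln1 ran from 53.4 to 101 in WT and 29.0 to 91.8 in KO (log2 difference −0.38). Fbln2 had the opposite sign, 0.15, at 150.4 to 219 in WT and 127 to 246 in KO.

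Elastic fibre genes and the latent TGF-beta binding proteins, which hold the growth factor TGF-beta in the matrix, all had log2 differences between −0.48 and −0.36. None of the 4 passed, and edgeR and DESeq2 called 0 of them. Fbn1 alone was lower at an unadjusted p under 0.05, where 12.4% of all genes were. Fbn1, the fibrillin that forms microfibrils, held 301 to 585 (median 429) normalized counts in WT and 214 to 420.1 (median 332) in KO (log2 difference −0.44, SE 0.18, adjusted p = 0.176, limma). The highest Fbn1 value was in WT 6, its log2 difference without WT 6 was −0.35, and 2442 of its exon bases are shared with Gm9913 on the other strand. Eln, elastin itself, held 1619.7 to 4802 (median 2298) in WT and 1340.1 to 2537 (median 1713) in KO. The WT maximum is again WT 6. The Eln log2 difference was −0.48 with that liver and −0.28 without it. Ltbp1 ranged from 124 to 266 in WT and 103 to 167 in KO, and Ltbp4 from 1582 to 2268 in WT and 919.9 to 2212 in KO with the lowest value in KO 1. Mgp, the matrix Gla protein that inhibits calcification, had 1 value out of line, 531 in WT 6 beside 91.8 to 168 in the other WT livers and 70.3 to 206 in KO; its log2 difference was −0.67, and −0.35 without WT 6.

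Of the 8 laminin chain genes none passed, and 2 were lower at an unadjusted p under 0.05, where 12.4% of all genes were. edgeR called 0 and DESeq2 Lama2 alone. Lama2, the alpha chain of muscle and mesenchymal basement membranes, held 178 to 252 (median 229) normalized counts in WT and 134 to 207 (median 172) in KO (log2 difference −0.42, SE 0.13, adjusted p = 0.090, limma). It shares 631 exon bases with Gm48084 on the other strand. Lamb1 held 444 to 591 (median 512) in WT and 284 to 491 (median 457) in KO (log2 difference −0.31, SE 0.14, adjusted p = 0.190, limma), and KO 1 and KO 2 alone lay below the WT livers. Lama5, the alpha chain of epithelial and vascular basement membranes, had a higher KO mean, 168 to 217 in WT and 178 to 278 in KO (log2 difference 0.24, adjusted p = 0.213). Lamc1, the gamma chain shared by most laminins, was the laminin gene with the highest level per length and ran from 1159.7 to 1374 in WT and 825 to 1328 in KO (−0.19). Lama4, the endothelial alpha chain, ran from 156 to 213 in WT and 77.7 to 221 in KO, with its lowest value in KO 1. Lamb2 (−0.09), Lamb3 (−0.01) and Lama3 (−0.03) had 95% intervals of −0.34 to 0.17, −0.31 to 0.29 and −0.75 to 0.69. Lamb3 and Lama3 belong to the laminin of epithelial anchoring and were among the 4 lowest of the 42 genes per length.

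The 4 basement membrane linker genes had log2 differences between −0.61 and −0.10, and none passed in limma or edgeR. Nid2 alone was lower at an unadjusted p under 0.05, where 12.4% of all genes were, and was called in DESeq2. Nid2, nidogen-2, held 386 to 535 (median 473) normalized counts in WT and 198 to 474 (median 318) in KO (log2 difference −0.61, SE 0.18, adjusted p = 0.0767, limma), and 5 of 6 KO livers were below every WT liver, KO 3 being the exception. Its exons share 437 bases with Rtraf on the other strand. Nid1, its paralog, showed 1463 to 2048 in WT and 1121 to 1832 in KO (−0.16). Hspg2, which encodes perlecan, showed 1193 to 1698 in WT and 806 to 1684 in KO (−0.20). Agrn, agrin, had the smallest ratio of highest to lowest liver of the 42 genes, 1.27, and measured 1060.4 to 1341 in WT and 1052 to 1207 in KO, with a log2 difference of −0.10 and a 95% interval of −0.24 to 0.03.

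Fibronectin was the most abundant of these transcripts and did not differ detectably. Fn1 ran from 47468 to 74845 (median 59821) normalized counts in WT and 48328 to 101204 (median 57554) in KO, a log2 difference of 0.02 with a 95% interval of −0.34 to 0.38; KO 2 held the highest value and the next was 74845 in WT 6. Sparc, which encodes osteonectin, a collagen-binding matricellular protein, held 9904 to 13006 (median 12116) in WT and 4773 to 12032 (median 9481) in KO (log2 difference −0.47, SE 0.19, adjusted p = 0.148, limma). KO 1 held 4773 and the lowest WT liver 9904, while those of KO 3, KO 4 and KO 6 overlapped with WT livers. Without KO 1 the Sparc log2 difference was −0.31. Tnc, tenascin-C, showed 123 to 225 in WT and 97.2 to 173 in KO (−0.37). The signs were opposite for Thbs1, thrombospondin-1 (104 to 309 in WT and 133 to 288 in KO, 0.09), and Postn, periostin (1121 to 1823 in WT and 1080.5 to 2516 in KO, 0.20), which are both induced in injured or remodelling tissue. Without KO 1 the Postn log2 difference was 0.34 (adjusted p = 0.261, limma).

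None of the 10 enzyme and inhibitor genes passed in limma or edgeR. At an unadjusted p under 0.05, 1 was lower (Timp2) and 2 higher (Adamts1 and Mmp14), where 12.4% and 11.1% of all genes were. DESeq2 called Timp2 lower and Adamts1 higher. Timp2, an inhibitor of metalloproteases that also takes part in activating Mmp2, held 593 to 993 (median 702) normalized counts in WT and 413 to 639 (median 502) in KO (log2 difference −0.51, SE 0.14, adjusted p = 0.055, limma), with 4 KO livers below every WT liver. Timp3, which is bound to the matrix, showed 831 to 1317 in WT and 399.9 to 1019.5 in KO (−0.38, and −0.20 without KO 1) and shares 1733 exon bases with Syn3 on the other strand. Timp1, the inhibitor induced in inflamed liver, was barely above the filter at 9.24 ± 5.94 in WT against 11.3 ± 6.83 in KO (SD, n = 6 per group). Adamts1, a protease that cuts versican and other proteoglycans, was higher on average: 534 to 657 (median 611) in WT and 618 to 779 (median 737) in KO (log2 difference 0.26, SE 0.07, adjusted p = 0.0594, limma), and 5 of 6 KO livers were above every WT liver, KO 1 being the exception. Without KO 1 the adjusted p was 0.0393 (limma) and the log2 difference 0.30. Mmp14, the membrane protease that activates Mmp2, held 1244 to 2051 (median 1599) in WT and 1608 to 2327 (median 1959.8) in KO (log2 difference 0.28, SE 0.11, adjusted p = 0.155, limma). Mmp2, a gelatinase, had the other sign at 428 to 857 in WT and 277 to 561 in KO (−0.30); its highest value was in WT 6, and the log2 difference was −0.17 without WT 6 and −0.17 without KO 1. The sign was negative too for Adamts2, which trims procollagen, at 493 to 700.4 in WT and 337 to 633 in KO (−0.30, and −0.18 without KO 1). The cross-linking oxidases Lox (48.4 to 226 in WT and 57.0 to 106 in KO), Loxl1 (52.2 to 155 in WT and 44.5 to 89.3 in KO) and Loxl2 (376 to 529.7 in WT and 206 to 529 in KO) had log2 differences of −0.31, −0.47 and −0.27. The highest Lox value was in WT 6, and without it the log2 difference was −0.06. The lowest Loxl2 value was in KO 1, and without it the log2 difference was −0.09.

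Per kilobase of annotated exon, the level spanned a wide range. In WT liver Fn1 stood at 5246 ± 789 normalized counts per kilobase, Sparc at 3149.7 ± 283, Dcn at 1253 ± 105 and Bgn at 727 ± 72.7 (SD, n = 6). Lum came next at 327 ± 57.7. Below it Eln, Ltbp4, Mmp14 and Nid1 lay between 318 and 252 on average, and their livers overlapped. The lowest were Timp1 (10.4), Lamb3 (10.3), Lama3 (2.82) and Vcan (1.29). Efemp1 and Ogn, the 2 genes without overlap between groups, ranked 16 and 23 of 42 at 125 and 60.3 per kilobase, and stood at 68.6 and 24.2 in KO.

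**Figure D3:**
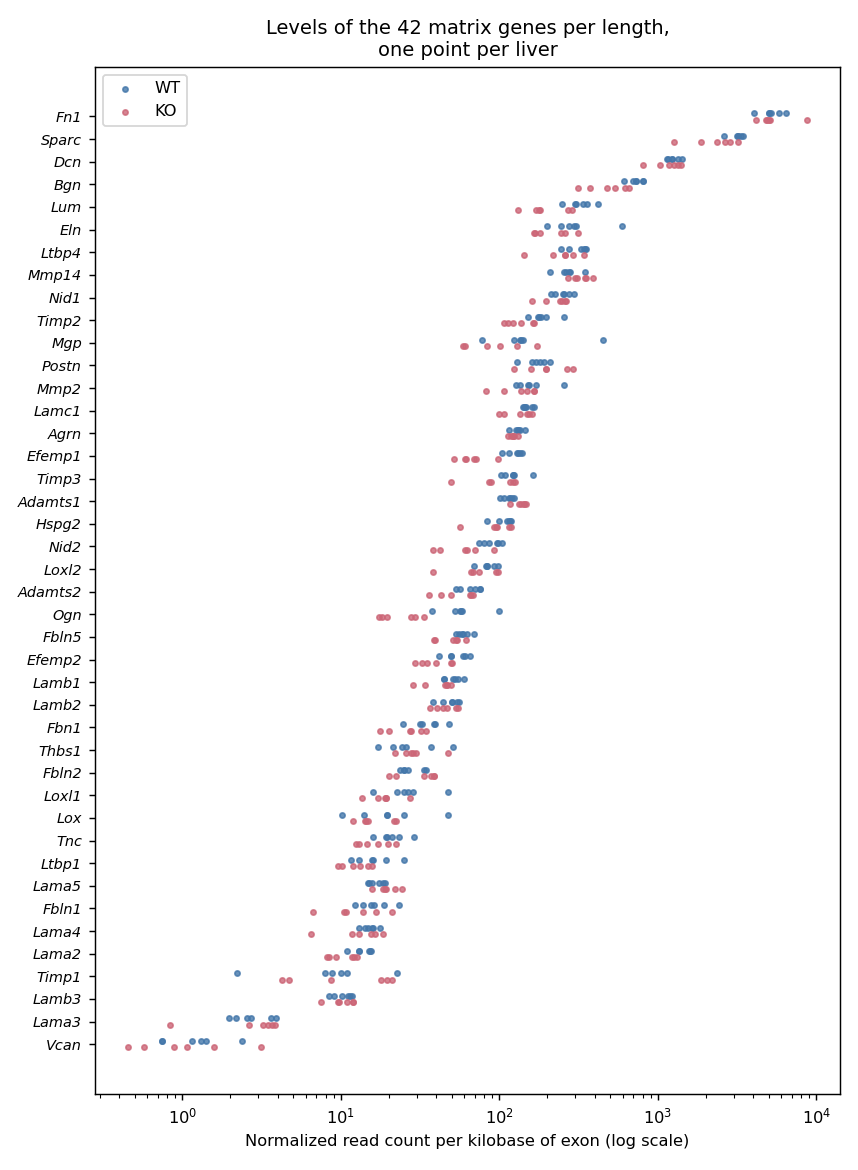
Normalized read count per kilobase of exon (x axis, log scale) of the 42 matrix genes, ordered by WT mean; each point is 1 liver, blue for WT and red for KO. Fn1, Sparc, Dcn and Bgn lead and Vcan is lowest; the blue and red points are apart for Efemp1 and Ogn.

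The KO livers were unlike each other. KO 1 was the lowest of the 12 livers for 25 of the 42 genes and KO 2 for 5, that is 59.5% and 11.9% of them. Over all genes tested KO 1 was lowest for 12.01% and KO 2 for 15.6%. The number of matrix genes below every WT liver was 31 for KO 1 and 26 for KO 2, then 15 and 12 for KO 5 and KO 4, but 5 for KO 6 and 3 for KO 3. Over all genes tested these shares ran from 14.2% in KO 6 to 25.1% in KO 2. As a median over the 42 genes, the log2 difference from the WT mean was lowest in KO 1 at −0.74, followed by −0.49 for KO 2 and −0.28 for KO 5. KO 4 and KO 6 came to −0.11 and −0.09, inside the span of the WT livers, −0.20 to 0.12, as did KO 3 at 0.02. Efemp1 and Ogn did not follow this order, being low in KO 3 and KO 6 too. Without KO 1 the median difference over the 42 genes was −0.19 and without KO 2 −0.25, with 34 and 33 genes below 0. Among genes that did not pass, the log2 difference without KO 1 was also nearer 0 by more than 1.5 times for Ltbp4 (−0.36 to −0.20), Lamb1 (−0.31 to −0.21), Fbln1 (−0.38 to −0.21), Lamc1 (−0.19 to −0.11), Nid1 (−0.16 to −0.06), Hspg2 (−0.20 to −0.05), Lama4 (−0.23 to −0.03), Dcn (−0.12 to −0.02) and Lamb2 (−0.09 to −0.02). It was farther from 0 by as much for Fbln2 (0.15 to 0.27), Postn (0.20 to 0.34), Timp1 (0.25 to 0.45), Fn1 (0.02 to 0.04), Lama3 (−0.03 to −0.12) and Lamb3 (−0.01 to −0.06). WT 6 was the highest liver for 12 genes and WT 3 for 10. Of the 12, the log2 difference without WT 6 was −0.65 for Lum, −0.56 for Bgn, −0.42 for Timp2, −0.26 for Ltbp1, 0.50 for Timp1 and 0.27 for Thbs1, and those of the other 6 stand with their values above. Vcan went from −0.17 to 0.02 without WT 6. Without WT 6 and KO 2 the median was −0.22 and 32 genes lay below 0.

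**Figure D4:**
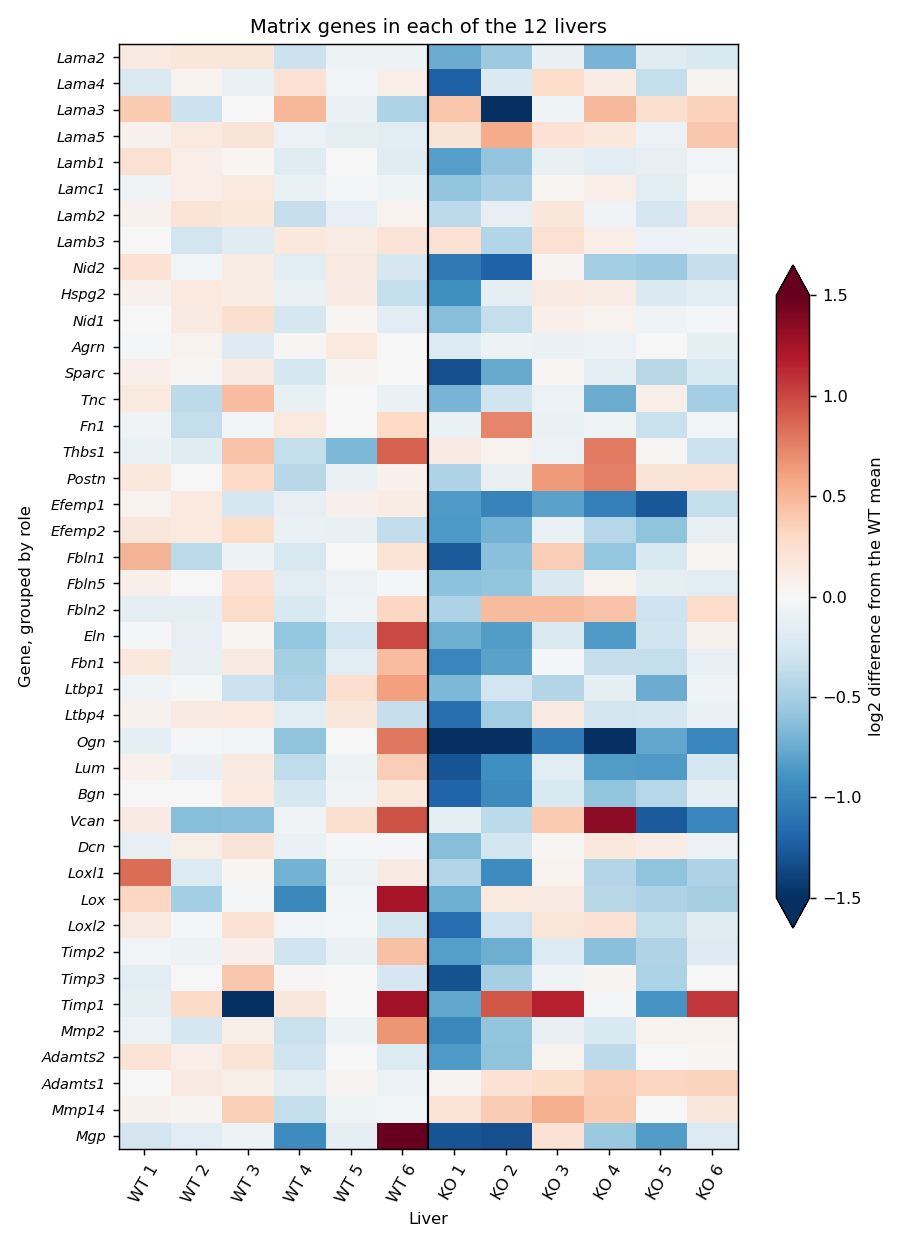
Log2 difference from the WT mean (colour, blue below and red above, saturating at 1.5) of the 42 matrix genes (rows, by role) in each liver (columns). KO 1 and KO 2 are blue across most rows, KO 3 is near white, Efemp1 and Ogn are blue in the 6 KO livers, and WT 6 is red for Eln, Ogn, Lox and Mgp.

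Stellate and endothelial cell markers were low in KO 1 and KO 2, whereas portal fibroblast and smooth muscle markers did not follow that order. The 16 stellate cell markers summed to 7427 normalized counts in KO 1 and 8174 in KO 2, 11094 to 11558 in the other KO livers and 9630.3 to 13045 in WT. Their median log2 difference from the WT mean was −0.71 in KO 1 and −0.35 in KO 2. For 14 endothelial markers it was −1.06 and −0.41, and −0.50 in WT 6, with sums of 10556 to 20869 in KO and 13759 to 24237 in WT. Of these 2 lists, 0 of 16 and 0 of 14 markers passed in limma, and edgeR and DESeq2 also called 0. At an unadjusted p under 0.05, 1 and 4 were lower, where 12.4% of all genes were. Of 15 portal fibroblast and mesothelial markers 1 fell, where 2.68% of all genes did. It was Ptgis, which encodes prostacyclin synthase and was named after its values were seen (2.51-fold, log2 difference −1.33, SE 0.18, adjusted p = 0.00189, limma). That list summed to 2695 to 3962 in KO and 3599 to 4522 in WT, and its median log2 difference was −0.74 in KO 5, the lowest, and 0.45 in WT 6, the highest. KO 2 stood at −0.56, and KO 1, at −0.26, lay inside the WT span of −0.31 to 0.45. No marker of these 3 lists was at 0 in all livers. The 7 smooth muscle markers summed to 2977 to 3795 in KO and 2736 to 3597 in WT, and the sums of KO 2 (3795) and KO 1 (3617) were the highest of the 12 livers. By their median log2 difference KO 1 was the lowest KO liver at −0.16. KO 2 stood at 1.13 and KO 3, the highest, at 1.15, with WT livers from −0.88 to 0.43. The part of cell makeup in the matrix gene differences was not tested.

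**Figure D5:**
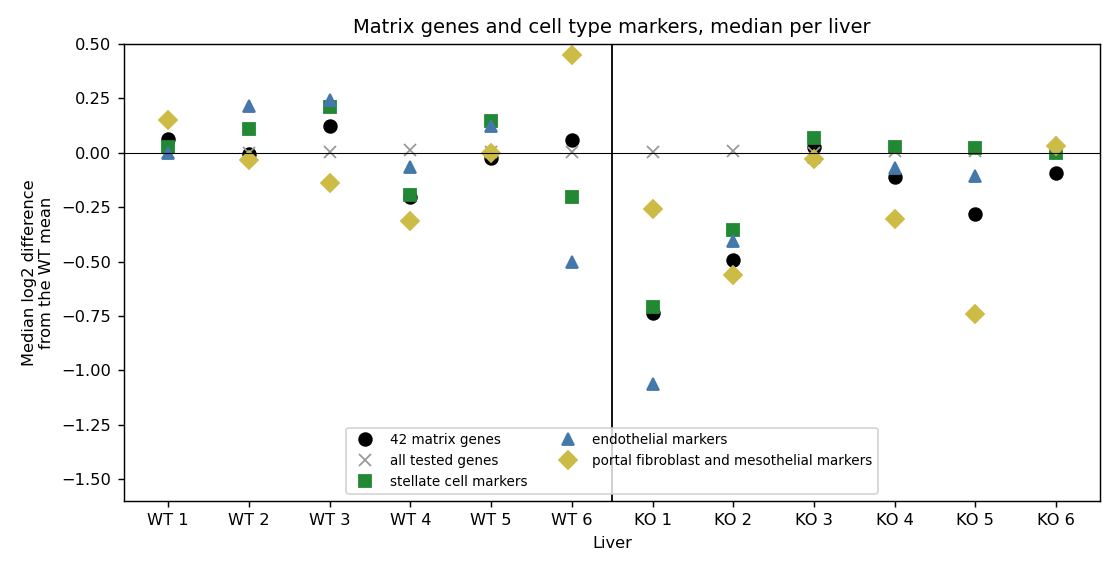
Median log2 difference from the WT mean (y axis) in each liver (x axis), for the 42 matrix genes, for all genes tested and for the markers of 3 cell types. The matrix genes, stellate markers and endothelial markers all lie lowest in KO 1, at −0.74, −0.71 and −1.06, while all genes tested stay near 0.

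Further matrix genes came from lists drawn up with earlier results of these data known. Of 39 further glycoproteins and proteoglycans tested, 3 fell and 0 rose, with a median log2 difference of −0.23, where 2.68% of all genes fell. At an unadjusted p under 0.05, 14 of the 39 were lower and 2 were higher, where 12.4% and 11.1% of all genes were. edgeR called 3 lower and DESeq2 4, and both called 0 higher. Of all 13569 genes tested, edgeR called 320 lower and 236 higher, and DESeq2 709 and 574. Fras1, a basement membrane protein of epithelial adhesion, fell 2.58-fold, from 98.5 to 173 (median 121) normalized counts in WT to 31.7 to 72.1 (median 51.8) in KO (log2 difference −1.37, SE 0.20, adjusted p = 0.00317, limma). Prelp, a leucine-rich proteoglycan that links basement membrane to collagen, fell 1.53-fold (2185 ± 267 in WT against 1439.6 ± 274 in KO, SD, n = 6 per group; log2 difference −0.62, SE 0.12, adjusted p = 0.0181, limma). Tnxb, tenascin-X, fell too (log2 difference −0.59, SE 0.14, adjusted p = 0.035, limma), a call lost on omitting any 1 of WT 1, WT 2, WT 3, WT 5, KO 1, KO 2, KO 4 (up to 0.0766). In these 3 genes every KO liver lay below every WT liver. Of the 39, 4 showed this pattern, these 3 among them, where 1.66% of all genes tested did.

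Of 38 further matrix enzymes and inhibitors tested, 1 rose and 3 fell, where 1.75% and 2.68% of all genes did. The median was −0.21. At an unadjusted p under 0.05, 14 of the 38 were lower and 5 higher, where 12.4% and 11.1% of all genes were. edgeR called 2 lower and 2 higher, where 320 and 236 of all 13569 genes tested were. DESeq2 called 4 lower and 3 higher, where 709 and 574 of all 13569 were. Adamts7, a protease that cuts the cartilage oligomeric matrix protein, rose 1.91-fold, from 345 to 617 (median 475) normalized counts in WT to 638 to 1467 (median 849) in KO (log2 difference 0.93, SE 0.18, adjusted p = 0.0139, limma), with the groups apart. The collagen chaperone gene Serpinh1 fell 1.81-fold and the serine protease gene Htra1 2.12-fold (adjusted p = 0.0326 and 0.0428, limma), and so did Adamtsl2, named after its values were seen (1.74-fold, 0.0463). Omitting any 1 of WT 1, WT 2, WT 3, WT 4, WT 5, KO 1, KO 2, KO 4 lost the Serpinh1 call, any 1 of WT 1, WT 2, WT 3, WT 5, WT 6, KO 1, KO 2, KO 4, KO 5 the Htra1 call and any 1 of WT 1, WT 2, WT 3, WT 4, WT 5, KO 1, KO 2, KO 4, KO 5 the Adamtsl2 call. edgeR called Serpinh1 (0.0374) and Adamtsl2 (0.0493) but not Htra1 (0.0567). Of 27 matrix receptor genes, the integrin gene Itga7, whose product binds laminin, rose 1.54-fold, and Itga1, whose product binds collagen, fell 1.29-fold (adjusted p = 0.0413 and 0.0413, limma). Over all genes, 1.75% rose and 2.68% fell at this threshold. Of the 27, 7 were lower and 1 was higher at an unadjusted p under 0.05, where 12.4% and 11.1% of all genes were. DESeq2 called 3 lower and 1 higher, where 4.76% and 3.92% were in the authors' deposited table. The Itga7 call was lost on omitting any 1 of WT 1, WT 2, WT 3, WT 5, KO 1, KO 2, KO 4, KO 5, and the Itga1 call on omitting any 1 of WT 1, WT 2, WT 3, WT 4, WT 5, KO 1, KO 2, KO 3, KO 4, KO 5.

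Of 19 collagen genes 2 fell and 0 rose, the median being −0.54, where 2.68% of all genes fell. At an unadjusted p under 0.05, 11 of the 19 were lower and 1 was higher, where 12.4% and 11.1% of all genes were. edgeR called 1 lower and DESeq2 6, where 320 and 709 of all 13569 genes tested were. Both called 0 higher, where 236 and 574 of all 13569 were. Col15a1, the basement membrane collagen XV, fell 3.82-fold (250.3 ± 119 in WT against 68.9 ± 37.5 in KO, SD, n = 6 per group; log2 difference −1.94, SE 0.36, adjusted p = 0.0119, limma), with every KO liver below every WT liver. Col6a2 fell 1.88-fold (log2 difference −0.91, SE 0.23, adjusted p = 0.0465, limma), and its call was lost in edgeR (0.0517) and without 8 of the 12 libraries in turn, namely WT 1, WT 2, WT 3, WT 5, KO 1, KO 2, KO 4, KO 5. Of 20 TGF-beta pathway genes tested 0 passed in limma or edgeR, and the median was 0.04. In DESeq2 1 of the 20 rose and 2 fell, where 574 and 709 of all 13569 genes tested did. At an unadjusted p under 0.05, 6 were lower and 2 higher, where 12.4% and 11.1% of all genes were. With the block of animal number runs Fras1, Adamts7 and Col15a1 passed (adjusted p = 0.0222, 0.038 and 0.0219, limma), and the other 8 genes called in these lists did not (0.0823 for Prelp to 0.204 for Adamtsl2). The smallest p in the TGF-beta list was that of Ltbp2, a further latent binding protein (121 ± 27.4 in WT against 75.4 ± 22.3 in KO, SD, n = 6 per group; log2 difference −0.70, SE 0.22, adjusted p = 0.0822, limma).

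The authors' deposited table, which gives p-values for the same comparison, called 8 of the 42 genes at an adjusted p under 0.05, 7 lower and 1 higher, where 4.76% and 3.92% of the genes with an adjusted p were lower and higher. In the authors' deposited table the 7 lower genes were Efemp1 (adjusted p = 6.11e-07), Ogn (6.02e-06), Lum (0.00873), Timp2 (0.0146), Bgn (0.0176), Nid2 (0.0442) and Lama2 (0.0478), and the higher one was Adamts1 (0.0164). All 8 are among the 8 genes with the smallest p in limma, where 5 of them missed the threshold with adjusted p between 0.055 and 0.090. Efemp1 and Ogn are the genes of the 42 that limma, edgeR and the authors' deposited table all called.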

How the data were processed

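Livers of 12 mice were frozen, and per the labels' protocols the kit was TruSeq Standard Total RNA. The submitters' processing notes list the build mm10 and the tools STAR, featureCounts, FastQC and DESeq2; their versions, the annotation and the strand setting are not given there. The deposited signal is a normalized count per gene, reads divided by 1 factor per library by the authors; all values (100%) were whole multiples of each library's smallest value above 0, to 0.001 reads, so whole reads were recovered. The authors' deposited log2 fold changes are shrunken by a step not named and are not printed; the deposited p-values matched a DESeq2 rerun within 2.05e-06.

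limma 3.58.1 (R 4.3.3) was fitted with a mean-variance trend to log2(normalized count + 1), genotype the only term, for 13569 genes with a mean of at least 10, two-sided, Benjamini-Hochberg adjusted over all of them. It was tested on simulated data. Alternatives were pseudocounts of 0.5 and 10, no filter or a minimum of 50, equal totals or upper quartiles, robust moderation, library weights, edgeR 4.0.16, DESeq2 1.42.0, runs of animal numbers (a gap of 10 starts a run) as a block, and omitted libraries. Library depth was 21769795 to 31296485 reads; precision rests on 6 animals a group.

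The members and lists were chosen with earlier results of these data known. Genes described in full are those past the threshold and those with the smallest p up to 14, and of other lists up to 3 past the threshold. Positions and exon lengths are from GENCODE M21 (GRCm38), matched by symbol, and promoter windows from RefSeq (GRCm38.p6). Exons of 13 members share bases with another gene; without the strand setting such reads cannot be told apart.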

Additional observations from a re-analysis of the deposited data

Results flagged for a closer look

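Within a genotype, 8 of the 84 sets of 6 values (42 genes, WT and KO) held a liver that stood far from the other 5 by Dixon's test at 95%, where chance gives about 1 in 20, or 4.2. In 4 of the 8 the liver was WT 6, which also held fat tissue transcripts: Eln at 4802 normalized counts (next WT liver 2457), Ogn at 256 (149), Mmp2 at 857 (574) and Mgp at 531 (168). The part of fat tissue in these 4 values was not tested. Fn1 was 101204 in KO 2, the liver with pancreatic transcripts, beside 59245 in the next KO liver. Thbs1 was 288 in KO 4 beside 181, Timp3 1317 in WT 3 beside 1003, and Sparc was low in WT 4 at 9904 beside 11869.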

How the results depend on the processing

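The number of matrix genes that fell was 3 in limma and 7 in DESeq2, and 2 to 6 when single libraries were left out: 6 without KO 3, 5 without KO 6, and 2 or 3 without any other. The number that rose was 0, and 1 (Adamts1) with library quality weights, in DESeq2 and without KO 1, so 0 to 1 over single omissions. Over all genes the count was 601, but 1323 in DESeq2, 158 with animal number runs as a block, 913 without WT 6 and KO 2, and 224 to 932 without single libraries (WT 1 to WT 6 omitted: 271, 304, 237, 340, 269, 932; KO 1, KO 4, KO 6 omitted: 260, 224, 909); the cause was not tested. Over 14 genes described in full and their alternatives, 311 of 336 values kept direction and side of the threshold, 13 missed it, all of them Lum, 12 crossed it, and none changed sign. Beyond block, edgeR and single omissions, Adamtsl2, Itga1 and Col6a2 missed the threshold with equal totals, Adamtsl2 and Col6a2 with no filter, Col6a2 with equal upper quartiles and robust moderation, and Tnxb, Htra1 and Col6a2 without WT 6 and KO 2. Equal totals and equal upper quartiles moved the median of all genes from 0.01 to −0.01 and 0.02 and left 35 and 33 of the 42 below 0. No paired analysis was possible because the labels give animal numbers that no 2 livers share. Timp1 and Vcan, with group means under 20, are limited by depth.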
